A study of Mus musculus with 116 samples.

Results

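The 10 genes described here encode parts of the contractile actin cytoskeleton: the actins Actb, Actg1 and Acta2, the transgelins Tagln and Tagln2, the tropomyosins Tpm1, Tpm2 and Tpm4, the myosin regulatory light chain Myl9 and the calponin Cnn2. They were taken as a named list, and all 10 were found by symbol among the 40202 gene symbols of the count files. The material was 116 RNA-seq libraries from 2 untreated mouse cell lines grown under routine conditions, C10 (labelled as alveolar type II epithelial cells of the lung) and SVEC (labelled as endothelial cells, which line blood vessels). Every library came from nanoSPLITS, a method that splits the lysate of 1 or a few cells held in a nanodroplet so that RNA and protein can both be measured. C10 was sequenced in an input series of 1 cell (8 libraries), 3 cells (6 libraries) and 10 cells (6 libraries), and both lines were sequenced as single cells (48 libraries each). Of the C10 single cells, 2 libraries with under 1000 counts were left out, which left 46. The labels do not say whether libraries of a group came from separate cultures, so the p-values below measure the spread between these libraries only.

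Actin filaments and myosin II together generate contractile force in cells. Actb and Actg1 encode the cytoplasmic actins that nearly all cells make, whereas Acta2 encodes smooth muscle alpha-actin, which smooth muscle cells and myofibroblasts use and which is not usual in resting epithelium or endothelium. Tropomyosins lie along the filament and set which myosins and other partners can bind it. Transgelins and calponins bind and stabilise or bundle filaments, and Tagln and Myl9 are, like Acta2, abundant in smooth muscle. Many genes of this group are known targets of serum response factor, which binds a short element called the CArG box.

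Promoter sequence was shown for the members whose start region held that element, since the members are often described as a co-regulated set. The RefSeq promoter table of assembly GRCm38.p6 held 8 of the 10 members (all but Actb and Tagln), and the 250 bases before each start site were searched for the CArG box in its strict consensus form. The element is its own reverse complement, so 1 search covered both strands. The strict form was found once each in Actg1, Cnn2 and Myl9 and in none of the windows of Acta2, Tagln2, Tpm1, Tpm2 and Tpm4, while 1.48% of all 32536 distinct windows of that length held it. Stretches 1 letter off the strict form, a class that includes the known CArG boxes of Acta2, occurred 2 times each in the windows of Acta2 and Tpm1 and once in that of Myl9, and at least once in 17.5% of all distinct windows. A match describes letters in this window only, and no strict match does not mean that a promoter lacks the element. The 3 windows follow 5′ to 3′ on the strand of the gene, with the strict CArG box in capitals. That of Actg1 lies at chr11:120348496-120348745 on the minus strand with the box from base -90 to -81, that of Cnn2 at chr10:79988350-79988599 on the plus strand with the box from -56 to -47, and that of Myl9 at chr2:156775214-156775463 on the plus strand with the box from -161 to -152, counted from the start site.
Actg1: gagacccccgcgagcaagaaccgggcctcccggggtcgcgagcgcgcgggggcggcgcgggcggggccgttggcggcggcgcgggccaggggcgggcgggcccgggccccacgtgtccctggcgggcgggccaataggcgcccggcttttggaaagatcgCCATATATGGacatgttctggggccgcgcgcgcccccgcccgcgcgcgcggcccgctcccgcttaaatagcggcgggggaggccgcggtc
Cnn2: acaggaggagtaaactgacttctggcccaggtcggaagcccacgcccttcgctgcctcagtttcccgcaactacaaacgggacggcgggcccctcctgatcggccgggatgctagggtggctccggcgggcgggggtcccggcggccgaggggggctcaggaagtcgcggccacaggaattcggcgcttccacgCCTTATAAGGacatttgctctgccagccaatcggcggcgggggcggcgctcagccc
Myl9: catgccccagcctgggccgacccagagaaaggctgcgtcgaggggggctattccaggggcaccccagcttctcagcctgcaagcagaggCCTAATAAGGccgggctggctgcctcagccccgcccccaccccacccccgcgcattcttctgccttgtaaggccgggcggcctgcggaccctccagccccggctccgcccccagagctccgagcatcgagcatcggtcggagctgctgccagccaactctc
The RNA levels of these 3 genes went different ways. Actg1 and Cnn2 were read in most libraries, and Myl9 was read once in the whole series.

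Depth differed between the groups. Total counts per library ranged from 430798 to 15385625 in the 1-cell group, from 6889508 to 14018116 with 3 cells, from 8313314 to 14778988 with 10 cells, from 83188 to 5911755 in C10 single cells and from 5122 to 2831907 in SVEC single cells. The SVEC median of 434945 counts was below the C10 single-cell median of 1881704. Levels are therefore given as counts divided by the library's total and multiplied by 1000000 (CPM), and a gene at 0 in a shallow library was not detectable at that depth. The markers of the labelled cell types were nearly absent. Of 12 epithelial markers only Cdh1 had counts in at least 50% of C10 single cells, and Krt8, Cldn4, Sftpc, Sftpb and Nkx2-1 were at 0 in all of them. None of 12 endothelial markers had counts in 50% of SVEC cells, and Kdr, Tie1, Emcn, Vwf, Esam and Cldn5 were at 0 in all. The 10 members together took a median of 1.06% of the counts of a C10 single cell, with a range of 0.548% to 2.13%, and 0.681% of the counts of an SVEC cell, with a range of 0.181% to 1.37%.

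**Figure D1:**
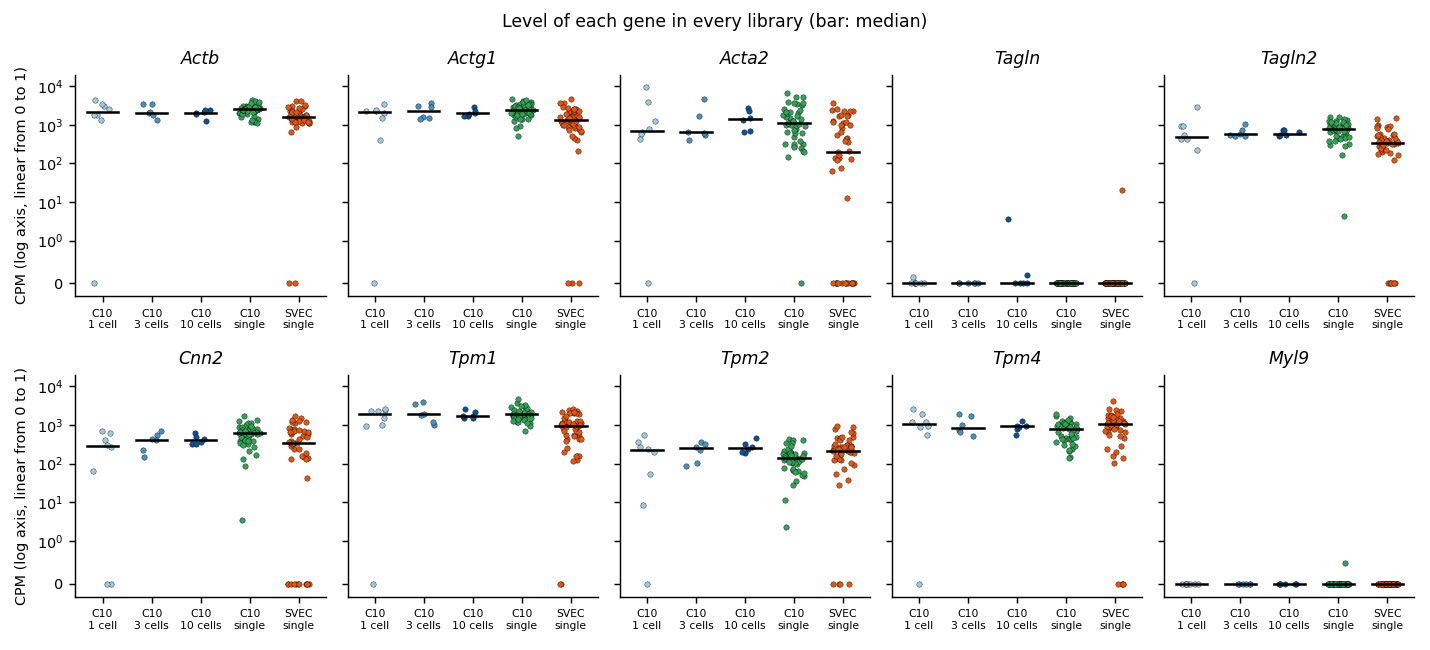
Level of the 10 genes in each library, in CPM, by library group; each point is 1 library and the short bars mark group medians. Tagln and Myl9 lie at 0 in nearly all libraries, and the highest Tagln point, 20.3 CPM in SVEC cell 12, is 1 count. In SVEC cells Acta2 spreads from 0 to 3753 CPM.

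Among the 10 genes, 8 were read at a substantial level and 2 were not. Levels were compared between genes per kilobase of annotated exon (GENCODE M21, all isoforms joined, which lowers the value of genes with many isoforms such as Tpm1). In C10 single cells the median level was 935 CPM per kilobase for Actb, 898 for Actg1, 519 for Acta2, 377 for Tagln2, 353 for Tpm4, 293 for Tpm1, 247 for Cnn2 and 47.8 for Tpm2. In SVEC cells the same scale gave 580 for Actb, 490 for Actg1, 480 for Tpm4, 164 for Tagln2, 149 for Tpm1, 141 for Cnn2, 91.8 for Acta2 and 73.9 for Tpm2. Acta2 thus came next after the cytoplasmic actins in C10 and next to last of the 8 in SVEC, where Tpm4 came next after those actins. Neighbours in each order differed by less than the larger of their SDs over cells, except Cnn2 and Tpm2 in C10.

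Tagln, a smooth muscle marker that binds actin filaments, had 0 counts in all 46 C10 single cells, out of 99332009 counts. A count of 0 over that total allows up to 0.0302 CPM, for counting error only. In the rest of the series Tagln had 1 count in SVEC cell 12, 2 counts in 1-cell replicate 6, and 37 and 3 counts in the 10-cell replicates 6 and 9. These 4 libraries were the only ones of 114 with any count. The 10-cell replicate 6 reached 3.63 CPM, and the 1 count of SVEC cell 12, out of 49358, amounts to 20.3 CPM. In GENCODE M21, 1349 of the 1988 exon bases of Tagln overlap genes on the other strand (Gm48529 and Pcsk7). The sources used here do not give the annotation or strand setting behind the counts. The remaining 639 bases overlap no other gene. Myl9, whose protein regulates myosin II of smooth muscle and nonmuscle cells, had 1 count in C10 single cell 12 and none in any other library, out of 341907676 counts. Its exons overlap no other gene in GENCODE M21, which may not be the annotation behind the counts. The related light chain genes were read at a high level: Myl12a had 1601, 3006 and 5171 CPM as lowest, median and highest C10 single cell, and Myl12b had 283, 796 and 1824 CPM.

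C10 and SVEC single cells were then compared, which asks how the 2 lines differ at the same input. The cytoplasmic actins were higher in C10. Actb had 1118, 2505 and 4283 CPM as its lowest, median and highest C10 cell, and 0, 1555 and 4129 CPM in SVEC. The groups overlapped, with 39 of 46 C10 cells above the SVEC median, and both SVEC cells at 0 had fewer than 100000 counts. Actb was 0.88 higher in C10 on the log2 scale (SE 0.192, n = 46 against 48, edgeR adjusted p = 0.000193). Actg1 had 516, 2387 and 4611 CPM in C10 against 0, 1303 and 4638 CPM in SVEC. Again the ranges overlapped, and 42 of 46 C10 cells lay above the SVEC median. The difference was 1.05 (SE 0.245, edgeR adjusted p = 0.000528). Of the read-length windows of the Actg1 transcripts, 23.3% also occur in transcripts of Gm12715, Gm16385 or Gm8399, so part of its reads may not have been placed uniquely.

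Acta2 was the member with the widest spread among cells. C10 cells ran from 0 through a median of 1139 to 6700 CPM, and SVEC cells from 0 through 202 to 3753 CPM. Counts were found in 45 of 46 C10 cells, and the single cell at 0, replicate 19, had 1752406 counts in total. In SVEC, 33 of 48 cells had counts, and 12 of the 15 without them had at least 100000 counts. When every library was drawn to 100000 counts, Acta2 was seen in 44 of 45 C10 cells and 30 of 42 SVEC cells. The ranges overlapped, yet 43 of 46 C10 cells exceeded the SVEC median. Acta2 was 1.53 higher in C10 (SE 0.490, edgeR adjusted p = 0.0168), a call that was lost with scaling to library totals alone, where the difference was 1.17 (SE 0.477, edgeR adjusted p = 0.0808). With limma on log2(CPM + 1) it was 3.57 (SE 0.706, limma adjusted p = 3.34e-05). Most other smooth muscle genes were not read beside Acta2: of the list of 8 smooth muscle markers only Smtn and Acta2 had counts in at least 50% of C10 cells, and Cnn1 was at 0 in all. The summed level of the list, Acta2 included, was 0.571 to 6911 CPM in C10 and 0 to 3755 CPM in SVEC. Its medians were 1177 and 279 CPM, against 1139 and 202 CPM for Acta2 alone.

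Of the filament-binding proteins, Tagln2, the transgelin of nonmuscle cells, was higher in C10. Its lowest, median and highest values were 4.40, 785 and 1601 CPM in C10 and 0, 341 and 1496 CPM in SVEC. These ranges overlapped, with 41 of 46 C10 cells above the SVEC median, and the difference was 1.30 (SE 0.307, edgeR adjusted p = 0.000650) and 1.95 with limma (SE 0.492, limma adjusted p = 0.00112). Cnn2, a calponin of nonmuscle cells, had 3.52, 606 and 1687 CPM in C10 and 0, 348 and 1742 CPM in SVEC. For Cnn2 37 of 46 C10 cells lay above the SVEC median and 11 SVEC cells were at 0. Its difference of 0.74 (SE 0.373, edgeR adjusted p = 0.171) did not pass the threshold of 0.05, but it passed with limma on log2(CPM + 1), at 2.15 (SE 0.588, limma adjusted p = 0.00257). C10 cell 24 held the lowest Actb, Tagln2 and Cnn2 values of its group, at 1118, 4.40 and 3.52 CPM.

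Of the 3 tropomyosins only Tpm1 passed the test. It had 718, 1900 and 4866 CPM in C10 and 0, 965 and 2592 CPM in SVEC, and was 1.31 higher in C10 (SE 0.219, edgeR adjusted p = 1.14e-06). For Tpm1 44 of 46 C10 cells exceeded the SVEC median and 19 of 48 SVEC cells fell below the lowest C10 cell, although the ranges overlapped. Tpm2 had 2.31, 139 and 426 CPM in C10 and 0, 215 and 959 CPM in SVEC. Most C10 cells, 38 of 46, lay below the SVEC median of Tpm2. The fitted difference was -0.45 (SE 0.304, edgeR adjusted p = 0.348), and with scaling to library totals alone it passed at -0.83 (SE 0.293, edgeR adjusted p = 0.0361), as it did among genes detected in at least 90% of a line's cells, at -0.74 (edgeR adjusted p = 0.0360). Tpm4 had 139, 777 and 1941 CPM in C10 and 0, 1056 and 4323 CPM in SVEC. Here 33 of 46 C10 cells lay below the SVEC median, and the difference of -0.15 (SE 0.284, edgeR adjusted p = 0.796) did not pass. Its sign turned to 0.32 (SE 0.446, limma adjusted p = 0.601) with limma.

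In all, 5 of the 8 members tested passed in C10 against SVEC with edgeR, all 5 higher in C10, where 18.9% of the 9303 genes tested passed in either direction and 14.4% were higher in C10. Tagln and Myl9 had counts in too few libraries to be tested. The median difference of the 8 was 0.97, and that of all genes tested was 0.35. With library totals alone the median of all genes was 0.01, and relative to the median of all genes Tpm2 and Tpm4 lay lower and the 5 called members higher under either scaling. Of the genes called, 1337 were higher and 417 lower in C10, against 932 and 656 with library totals alone. Drawing every library to 100000 counts, chosen after seeing the data, left the same 5 members called.

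**Figure D2:**
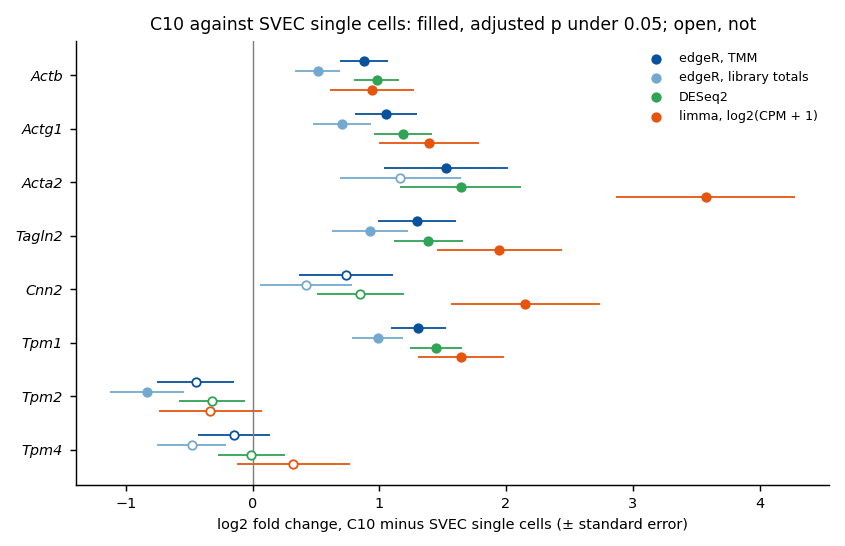
Log2 difference of C10 over SVEC single cells for the 8 members tested, from edgeR, with bars of 1 standard error, beside the alternatives in processing. Actb, Actg1, Acta2, Tagln2 and Tpm1 lie above 0 throughout, and Tpm2 lies below 0 throughout.

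Other genes of the same machinery are given by list. Among 4 tested of the other tropomyosin, transgelin and calponin genes, 1 was higher in C10 and none lower: Cald1, which encodes the actin- and myosin-binding caldesmon, with a difference of 1.48 (SE 0.360, edgeR adjusted p = 0.000952). Cald1 had 131, 669 and 1636 CPM in C10 and 0, 273 and 2256 CPM in SVEC, so the ranges overlapped. Of 6 myosin II genes tested, 2 were higher and none lower, the regulatory light chains Myl12a (1.08, edgeR adjusted p = 4.81e-08) and Myl12b (0.58, edgeR adjusted p = 0.0134), which are closely similar in sequence. Of 12 genes of myosin phosphatase and RhoA-ROCK signalling, which set the phosphorylation of those light chains, only the GTPase gene Rhoc was called (0.92, edgeR adjusted p = 0.0240). Of 17 crosslinker and focal adhesion genes, Zyx (2.89, edgeR adjusted p = 3.37e-06) and Flnc (2.53, edgeR adjusted p = 0.0122) were higher and none lower; the focal adhesion protein gene Zyx had counts in 45 of 46 C10 cells and 28 of 48 SVEC cells, and the filamin gene Flnc in 26 and 13. None of the 3 serum response factor and MRTF genes tested was called, and no other actin gene had enough counts for a test. Of 11 fibroblast and mesenchymal markers 6 were tested, and 3 (Col1a1, Dcn and Vim) were higher in C10 and 3 were not called, where 18.9% of all genes passed. The summed level of the 11 was 2149 to 21004 CPM in C10 and 615 to 11815 CPM in SVEC, with Lum and Thy1 at 0 in both. Their part in the result was not tested. The epithelial marker Cdh1 (3.05, edgeR adjusted p = 5.10e-07) and the endothelial marker Tek (2.08, edgeR adjusted p = 0.00143) were also higher in C10, and the endothelial marker Flt1 was lower (-3.96, edgeR adjusted p = 7.43e-05). These 3 had few counts, with medians of at most 0.204 CPM in either line.

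Shares among the members of a family do not depend on how libraries are scaled. The tropomyosin shares are of the counts of Tpm1, Tpm2 and Tpm4 only; Tpm3, which is no member, had medians of 268 CPM in C10 and 421 CPM in SVEC and is left out of them. Tpm1 took 48.6%, 65.2% and 88.6% of the counts of the 3 tropomyosins as lowest, median and highest C10 cell, and 0%, 41.2% and 92.0% in SVEC. All 46 C10 cells lay above the SVEC median, and the mean was 68.2% ± 10.9 (SD, n = 46) in C10 and 42.2% ± 20.7 (SD, n = 47) in SVEC. Tpm4 took 26.4% ± 11.5 (SD, n = 46) in C10 and 44.7% ± 24.1 (SD, n = 47) in SVEC. Tpm2 took 5.40% ± 3.47 (SD, n = 46) and 13.1% ± 11.4 (SD, n = 47), and in the 42 SVEC cells with at least 100000 counts 11.3% ± 6.71 (SD, n = 42). The extremes in SVEC came from shallow cells: Tpm1 at 0% from cell 20, with 9 counts of the 3 genes, and Actg1 at 100% from cell 48, with 58 counts of the 2 cytoplasmic actins. In SVEC cells with at least 100000 counts Tpm1 ran from 6.35% to 92.0% and Actg1 from 0% to 72.9%. Actg1 took a median of 49.2% of the counts of the 2 cytoplasmic actins in C10 and 45.6% in SVEC, with ranges of 20.1% to 66.7% and 0% to 100%. Acta2 took a median of 19.5% of the counts of the 3 actins in C10, with a range of 0% to 58.1%, and 6.92% in SVEC, with a range of 0% to 60.7%. Shares were described without a test.

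**Figure D3:**
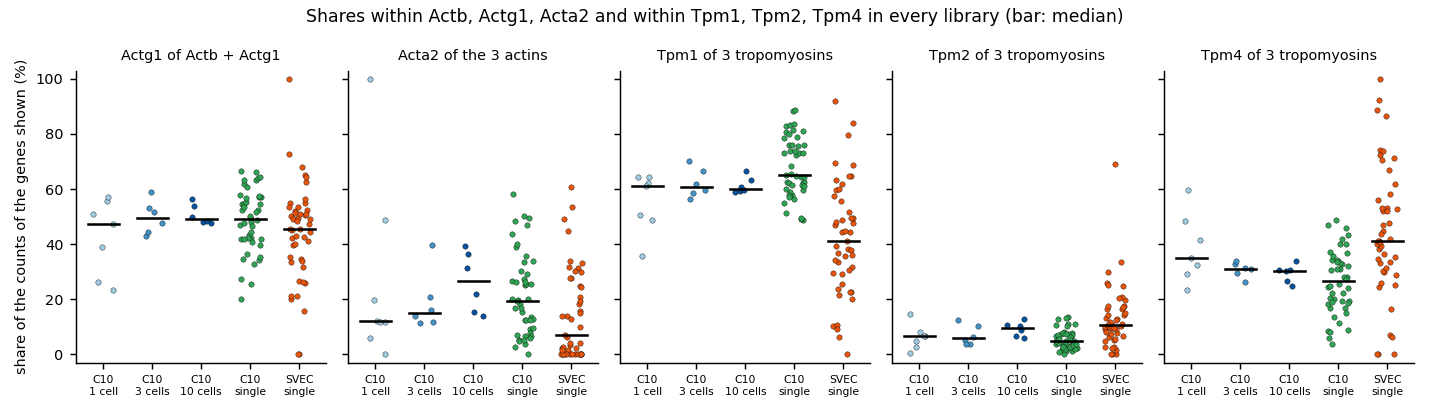
Shares of counts in percent, per library and by group: Actg1 of Actb and Actg1, Acta2 of the 3 actins, and each of Tpm1, Tpm2 and Tpm4 of those 3; each point is 1 library. The medians of Tpm1 run from 60.1% to 65.2% in the C10 groups and reach 41.2% in SVEC.

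In the input series, which asks how the measurement changes with the number of C10 cells, none of the 8 members tested passed the test between groups. With edgeR 0 of 8 passed for 10 cells against 1 cell, where 10.7% of genes passed, 0 of 8 for 3 cells against 1 cell, where 6.35% passed, and 0 of 8 for 10 cells against 3 cells, where 0% passed. None of the 8 reached an unadjusted p under 0.05 with edgeR or limma in these comparisons, and 3 did with DESeq2 for 10 cells against 1 cell. For 10 cells against 3 cells 1346 of all 13645 genes tested had an unadjusted p under 0.05 with edgeR, and DESeq2 called 1.58% and limma 0.257%. The members' differences for 10 cells against 1 cell ran from -0.79 to 0.15 on the log2 scale with standard errors of 0.769 to 1.05 in edgeR. Changes of that size, and changes well above it, could therefore go undetected. Their direction depended on the tool, from -1.93 to -0.81 with DESeq2 and from 0.84 to 2.47 with limma. This was not particular to the members. The median of all genes was 0.36 with edgeR, -0.55 with DESeq2 and 1.45 with limma, and that of the 8 members was -0.22, -1.37 and 1.39. In pools of 3 or 10 cells, fewer cells expressing a gene and less RNA per cell cannot be told apart.

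A pair of 1-cell libraries stood apart in the members. Replicate 1 had 430798 counts and 538 genes, and of the members only Acta2 had counts there, at 9338 CPM. Of the reads of replicate 1, 95.1% were not aligned, against 21.9% to 51.0% in the other 1-cell libraries. Replicate 10 had 11957603 counts and the most genes of its group, 11764, and in it Acta2 was at 0, Actg1 at 400.2 CPM and Tpm2 at 8.36 CPM. The other 6 libraries held Acta2 between 426 and 3878 CPM. Leaving out replicate 1 lowered the share of genes called for 10 cells against 1 cell to 2.46%, leaving out replicate 10 raised it to 20.3%, and no member was called either way.

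The spread between libraries was smaller with 10 cells, described here without a test. The coefficient of variation (SD over mean of CPM) of Actb was 0.412 with 1 cell (without replicate 1), 0.371 with 3 cells and 0.212 with 10 cells. For Acta2 it was 1.20, 1.16 and 0.540, the largest among the 8 members in each group over these libraries. Tagln2 went from 0.995 to 0.325 and 0.169, and Cnn2 from 0.766 to 0.492 and 0.268. Tpm1 had 0.375, 0.533 and 0.223, and Tpm4 0.515, 0.540 and 0.248. The 10-cell value was the lowest for all 8 members over these libraries, but single libraries moved several values, in a check chosen after seeing the data. Without 3-cell replicate 2, Tagln2 had 0.152 with 3 cells, below its 10-cell value. Without 1-cell replicate 2, Acta2 had 0.679 with 1 cell and was no longer the largest there, and without 3-cell replicate 2 it had 0.653 with 3 cells. Without 1-cell replicate 5, Tagln2 had 0.503 with 1 cell, and without 10-cell replicate 1, Actb had 0.123 with 10 cells. In the 10-cell libraries Actb ran from 1287 through 2034 to 2453 CPM, Acta2 from 662 through 1414 to 2676 CPM and Tpm1 from 1511 through 1719 to 2564 CPM. With 3 cells the same genes ran from 1338 through 2071 to 3440 CPM, from 406 through 630 to 4676 CPM, and from 1002 through 1912 to 3916 CPM. Replicate 2 was the highest 3-cell library for Actb, Acta2 and Tpm1.

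The other members read in the input series had overlapping ranges at all 3 inputs. Actg1 ran from 0 through 2117 to 3469 CPM with 1 cell, from 1397 through 2236 to 3653 CPM with 3 cells and from 1663 through 1956 to 2814 CPM with 10 cells. Tagln2 ran from 0 through 481 to 2844 CPM, from 498 through 571 to 1067 CPM and from 523 through 588 to 747 CPM. Cnn2 ran from 0 through 293 to 702 CPM, from 150.4 through 421 to 704 CPM and from 317 through 403 to 610 CPM. The groups overlapped for all 3 genes, the 0 values of Actg1 and Tagln2 were those of 1-cell replicate 1, and Cnn2 was also at 0 in 1-cell replicate 5. Tpm2 ran from 0 through 223 to 565 CPM with 1 cell, from 86.5 through 247 to 364 CPM with 3 cells and from 189.7 through 253 to 454 CPM with 10 cells. Tpm4 ran from 0 through 1073 to 2541 CPM, from 535 through 859 to 1930 CPM and from 563 through 925 to 1236 CPM. These groups overlapped as well. With 1 cell Actb ran from 0 through 2158 to 4364 CPM and Tpm1 from 0 through 1892 to 2644 CPM, so their medians with 1, 3 and 10 cells lay closer together than the libraries of any one group.

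**Figure D4:**
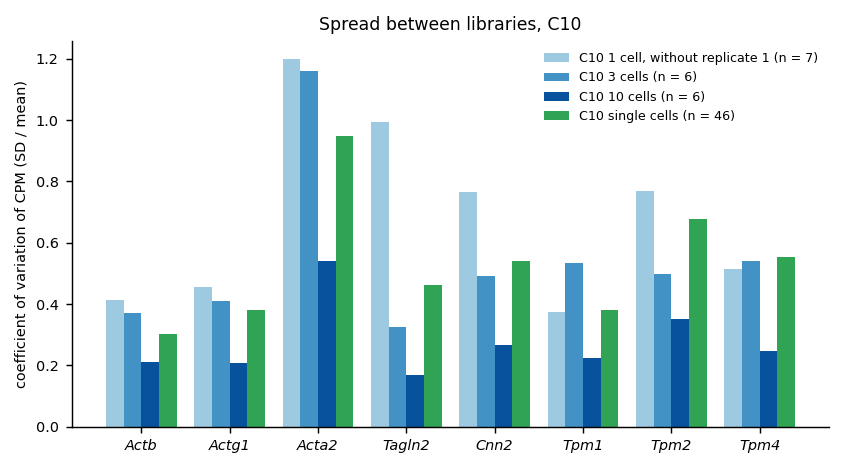
Coefficient of variation of CPM (SD over mean) of the 8 members read, in libraries of 1, 3 and 10 C10 cells and in C10 single cells; 1-cell replicate 1 is left out. Over the libraries plotted the 10-cell value is the lowest for each gene and Acta2 is the highest gene at each input; without 3-cell replicate 2 the 3-cell value of Tagln2 is 0.152, and without 1-cell replicate 2 the 1-cell value of Acta2 is 0.679.

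The C10 single cells and the 1-cell libraries of the input series hold the same line at the same nominal input, and series and any batch cannot be told apart. With edgeR 1 of 8 members passed, where 15.1% of genes passed and 11.4% were lower in the single cells: Tpm4 was 1.35 lower in the single cells (log2 difference -1.35, SE 0.401, n = 46 against 8, edgeR adjusted p = 0.0124). The median of all genes was -0.36 in that comparison. The medians of Tpm4 were 777 and 1073 CPM, and the ranges overlapped. The call was lost with library totals alone, at -0.57 (SE 0.406, edgeR adjusted p = 0.438). Acta2 medians were 1139 CPM in the single cells and 708 CPM in the 1-cell libraries, and Actb medians 2505 and 2158 CPM, and neither passed with edgeR. The calls depended on the tool: DESeq2 called Actb, Tagln2, Tpm1, Tpm2 and Tpm4 lower in the single cells, with Actb at -1.43 (SE 0.373, DESeq2 adjusted p = 0.00179), and limma called Cnn2 alone, higher, at 2.73 (SE 0.723, limma adjusted p = 0.00895). DESeq2 called 12.2% of the 12303 genes tested, 981 of them lower, and its median over all genes was -0.75. With limma 9.40% of genes were called, and the median over all genes was 0.26.

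Across single cells some pairs of members varied together and others did not. Cells of a group share library depth and scaling, so Pearson's r and Spearman's rho of log2(CPM + 1) are given as a description over cells with at least 100000 counts. In C10 (n = 45) Actb went with Cnn2 (r = 0.593, rho = 0.478) and with Tagln2 (r = 0.528, rho = 0.447), and Actg1 with Cnn2 (r = 0.496, rho = 0.551). Without the 2 cells farthest from the median of the first gene, these 3 values of r were 0.451, 0.435 and 0.477. The highest r of all, 0.699 between Tagln2 and Cnn2, rested on such cells: its rho was 0.144 and its r without 2 cells 0.0627. Acta2 varied largely apart from the cytoplasmic actins in C10. Its closest member there was Tpm2 (r = 0.339, rho = 0.485), at r = 0.399 without 2 cells. With Tpm1 in C10, Acta2 had r = 0.00857 and rho = 0.198, but r = 0.342 without 2 cells. In SVEC (n = 42) Acta2 went with Tpm1 (r = 0.507, rho = 0.568), which held at 0.544 without 2 cells. Over the 28 pairs of members the median r was 0.197 in C10 and 0.0976 in SVEC, against 0.0575 and 0.0533 over all pairs of genes detected in at least 90% of cells. Those genes were not matched to the members in level or detection. Over all cells, shallow ones included, the medians were 0.202 against 0.0557 in C10 and 0.198 against 0.164 in SVEC.

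**Figure D5:**
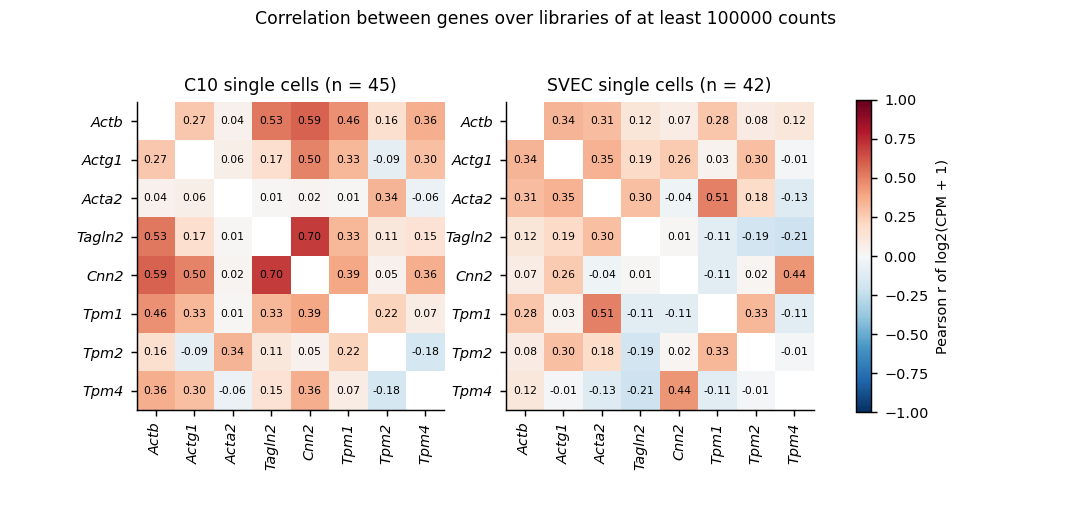
Pearson's r of log2(CPM + 1) for each pair of the 8 members read, across C10 single cells (n = 45) and SVEC single cells (n = 42) with at least 100000 counts. The highest pair is Tagln2 with Cnn2 in C10 (0.699) and Acta2 with Tpm1 in SVEC (0.507).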

How the data were processed

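RNA was measured in 116 libraries. The authors deposited raw counts of reads per gene symbol, with 5 closing counters of reads not assigned to a gene; those for no gene, several genes or low mapping quality took 10.8% to 18.3% of gene and such reads together. Per the labels' protocols cDNA was made with SMART-Seq v4 Plus and read as single reads of 150 bases. The submitters' processing notes name FastQC, STAR and HTSeq; versions, build, annotation and strand are not given in the sources used here. Molecular identifiers are not mentioned, hence copies made by PCR count as reads, and floors cover counting error only.

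Libraries with under 1000 counts were left out (2), leaving 114. No pair of libraries agreed within sampling noise. CPM is the count over the library's summed gene counts. Genes detected in at least 25% (single cells) or 50% (input series) of a group's libraries were tested with edgeR 4.0.16 (quasi-likelihood test, TMM scaling, Benjamini-Hochberg over all genes, threshold 0.05); limma 3.58.1, DESeq2 1.42.0, other scaling and filters, a replicate block and left-out libraries were alternatives. Scripts were tested on simulated data. The 10 members and the other gene lists were chosen with earlier results of these data known. All members were named; from other lists, the 3 genes with the largest change per direction among those called for C10 against SVEC; for likeness, the 5 genes with the highest r to Actb and to Acta2 in each line, some of which are not reported here.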

Additional observations from a re-analysis of the deposited data

Results flagged for a closer look

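In groups of 4 to 10 libraries, 4 of 39 sets of member values held 1 library farther from the others than Dixon's 95% limit, and chance gives about 1 in 20. In the 1-cell group, replicate 1 had 9338 CPM of Acta2, with the others between 0 and 3878. It had 430798 counts in all and no counts of any other member, and 95.1% of its reads were not aligned. In the same group replicate 5 had 2844 CPM of Tagln2, with the others between 0 and 943. With 3 cells, replicate 2 had 4676 CPM of Acta2, with the others between 406 and 1666. Acta2 accordingly took 39.7% of the counts of the 3 actins in that library, with the others between 11.5% and 20.7%.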

How the results depend on the processing

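For C10 against SVEC, 5 or 6 of the members were called under every alternative, and Actb, Actg1, Tagln2 and Tpm1 kept their direction and call in all 8. The sign of Tpm4, which was never called, turned to 0.32 with limma and to 0.11 with the replicate block. For C10 single cells against 1 cell, the number of members called was 0 with library totals alone, with genes detected in at least 90%, with the replicate block and with libraries drawn to 100000 counts, and 5 with DESeq2, all lower, while limma called Cnn2 in place of Tpm4; Tpm4 turned to 0.41 with limma; the cause was not tested. In the input series 0 members were called under every alternative and with each replicate left out. The 35 alternatives for family shares moved none by more than 1 SD over libraries, a wide limit within which some differences changed sign. Acta2 took a mean of 18.9% of the 3 actins with 3 cells, 21.9% in C10 single cells and 26.2% with 1 cell. Of summed counts it took 23.1%, 25.0% and 22.0%. Tpm2 took a mean of 7.00% of the 3 tropomyosins with 3 cells and 6.24% with 1 cell, and 6.46% and 7.48% of summed counts. The share of genes called moved more. For C10 against SVEC it was 18.9%, and 34.6% with limma, 30.2% without a filter, 27.6% with genes detected in at least 90% and 33.4% with the block. For 10 cells against 1 cell it was 10.7%, 0.247% without a filter and 4.88% with the 90% filter. For 3 cells against 1 cell it was 6.35%, 0.887% with limma, 0.335% without a filter, 3.33% with the 90% filter and 0% with the block. Leaving out single libraries gave 2.46% to 20.3% for 10 cells against 1 cell, the lowest without 1-cell replicate 1 and the highest without 1-cell replicate 10. For 3 cells against 1 cell it gave 0.235% without 1-cell replicate 1 and likewise without replicate 9. There it gave 0.286%, 0.403%, 1.03% and 1.64% without 1-cell replicates 5, 14, 13 and 2. Without 1-cell replicates 6 and 10 it gave 7.22% and 14.9%, so the share did not hang on replicate 1 alone. For C10 single cells against 1 cell it was 15.1%, 12.2% with DESeq2, 9.40% with limma, 24.2% without a filter, 6.23% with the 90% filter and 0% with the block. Replicate numbers showed no pairing of C10 with SVEC cells. Over 46 pairs, deviations correlated at a mean r of 0.00164, 1 pair exceeded 0.1, and 1 C10 library correlated best with its own number. In the input series no pair exceeded 0.1, and 1 of 6 libraries correlated best with its own number for 10 cells against 1 cell, 3 of 6 for 3 cells against 1 cell and 2 of 6 for 10 cells against 3 cells. With 6 pairs each, these values do not settle whether the numbers pair the input libraries. For C10 single cells against 1 cell, 0 of 8 correlated best with their own number. Under the replicate block Cnn2 also passed for C10 against SVEC, at 1.44 (edgeR adjusted p = 0.0176). The low depth of SVEC limits what zeros show, since 6 of 48 libraries held under 100000 counts.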

Other observations

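Among genes detected in at least 90% of a line's single cells, those most like Actb in C10 (n = 46, Pearson's r of log2(CPM + 1)) were Anxa3 (0.606), 1110004F10Rik (0.586), Creb3 (0.534), Vim (0.531) and Anxa1 (0.528), where the median over 1813 genes was 0.138. In SVEC (n = 48) they were Nme1 (0.934), Ppp1ca (0.924), Slc25a4 (0.917), Gstp1 (0.901) and Nedd8 (0.899); over the 42 cells with at least 100000 counts all 5 were lower, Nme1 at 0.569 and the others at 0.219 to 0.305. The genes most like Acta2 in C10 were Mfge8 (0.479), Lox (0.460), Dpm2 (0.442), ATP6 (0.433) and Rpl7l1 (0.399), and over the 45 cells with Acta2 counts their r was at most 0.160. In SVEC they included Ndufb8 (0.523), Rpl35a (0.455) and Tcra (0.430), and over the 33 cells with Acta2 counts Ndufb8 reached 0.617 and Tcra 0.304. These values are descriptions, and cells share depth and scaling.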
